A study of Homo sapiens with 18 samples.

Results

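RA-treated foregut was followed from day 6 to day 9 in 6 of the 18 bulk RNA-seq libraries of the series. The 6 libraries were chosen by label: 3 were taken at day 6, at the end of 24 h in 2 µM all-trans retinoic acid (RA, given from day 5 to day 6), and 3 were taken at day 9 after the same exposure, with no other factor named for the days between. All cells were foregut endoderm made from H1, an established human embryonic stem cell line labelled wild type, so the data hold 1 line. The groups used for comparison were untreated foregut at day 6 and at day 9 (3 libraries each, no RA), and foregut at day 9 that received the same RA and then 2 µM CHIR99021 with 50 ng/mL BMP4 for 72 h (3 libraries). CHIR99021 inhibits the kinase GSK3 and so activates Wnt signalling, and BMP4 is a bone morphogenetic protein. The series uses that pair to imitate the signals that induce respiratory fate. The last 3 libraries (CHIR99021 and BMP4 without RA) entered the fit only through its shared estimate of the spread.

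RA is made from vitamin A by ALDH1A enzymes, binds receptor pairs of the RAR and RXR families on DNA, and is broken down by CYP26 enzymes whose own genes it induces. In the embryo it marks posterior foregut, the source of liver, pancreas and duodenum, and switches on HOX genes in the order in which they lie along their clusters. The mesoderm beside the foregut forms heart muscle and the smooth muscle of gut and airways, and it exchanges Hedgehog, BMP and FGF signals with the endoderm.

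The day 6 libraries held 8.88, 12.11 and 6.95 M counts (M, 1000000) and the day 9 libraries 6.73, 10.75 and 9.99 M (5.79 to 25.37 M over the series). Replicates correlated at 0.993 to 0.995 at day 6 and 0.988 to 0.993 at day 9 (Pearson, log2 values across genes). Day 9 replicate 1 stood somewhat apart, with 29 genes more than 2-fold below and 8 more than 2-fold above both other replicates, of 10456 genes with at least 10 CPM (counts per 1000000 after library scaling, the scale of all levels here unless TPM is named). A set of 63 genes, 60 of them pseudogenes, differed at least 10-fold between 4 of the 6 untreated libraries and every library given a factor. The share of this set's counts in the 32 members that were high with a factor was 94.6% to 95.5% in the 6 libraries followed here and 93.9% to 94.3% with CHIR99021 and BMP4 after RA, but 0.306% to 0.549% in untreated day 9 libraries and 8.52%, 0.35% and 16.8% in untreated day 6 replicates 1, 2 and 3. The comparison of day 6 with day 9 after RA does not cross that divide, whereas any comparison with untreated libraries does. Beside a level, ± is the standard deviation over 3 libraries, and a gene is said to have risen or fallen where edgeR's quasi-likelihood test gave an adjusted p below 0.05 (Benjamini-Hochberg over all tested genes). The labels do not say whether replicates were separate cultures, so these p-values measure only the spread between libraries.

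Over the 3 days after RA, the cultures gained the transcripts of heart muscle and smooth muscle, of collagen matrix and of several liver and pancreas regulators, and they lost HOX transcripts, the RA-degrading enzyme CYP26A1, apolipoprotein transcripts and replication genes. Of 15531 genes tested, 9127 (58.8%) differed between day 6 and day 9: 4423 were higher (28.5%) and 4704 lower (30.3%) at day 9. At 2-fold or more, 1642 were higher (10.6%) and 1659 lower (10.7%), and the median log2 change of all tested genes was -0.03. A share of genes this large forms the background against which each gene group below is read.

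The heart muscle program showed the largest rises. MYH6, the alpha heavy chain of cardiac myosin, stood at 0.551, 0.245 and 1.41 CPM in the day 6 libraries and at 904, 565 and 698 CPM in those of day 9. The groups were far apart: the rise was 1112-fold (log2 10.12 ± 0.41 SE, edgeR adjusted p = 6.3e-11), and 10.86 on the log2 scale without day 6 replicate 3. ACTC1, cardiac alpha-actin, was at 28.8, 12.9 and 26.7 CPM and then at 2421, 2199 and 3159 CPM, 117-fold higher (log2 6.87 ± 0.39 SE, edgeR adjusted p = 4.7e-09). MYL7, the atrial regulatory light chain, went from 28, 30.7 and 29.7 CPM to 568, 473 and 618 CPM, 18.7-fold higher, with no overlap. Per transcript length, ACTC1 averaged 3263 TPM (the authors' deposited values, which divide by gene length) at day 9 and ranked 20 among all genes, against 789 TPM for MYL7, 456 TPM for MYH6 and 41 TPM for MYH7, the beta heavy chain. The split of reads within sets of near-identical genes, such as MYH6 and MYH7 or ACTC1, ACTA2 and ACTG2, is uncertain. How shared reads were assigned is not given in the sources used here.

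**Figure D1:**
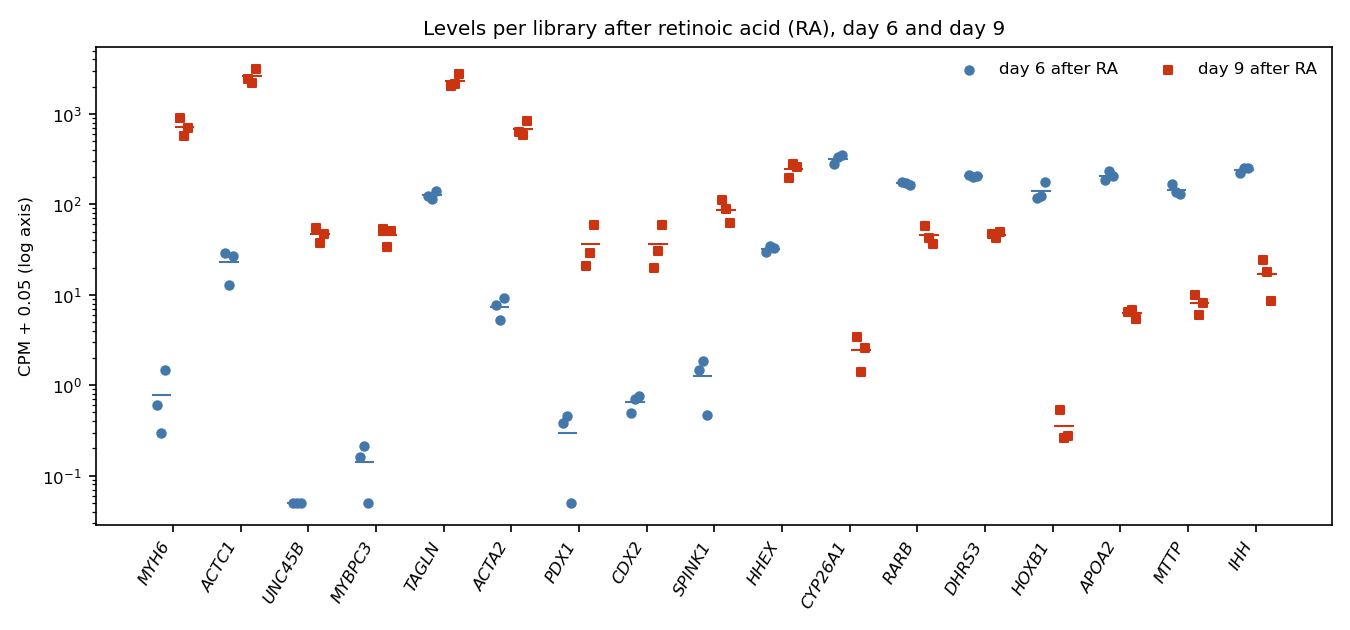
Levels of 17 genes in each day 6 (blue circles) and day 9 (red squares) library after RA (CPM with 0.05 added, log axis, bars at the group means). MYH6 and ACTC1 sit far higher at day 9 and CYP26A1, HOXB1 and APOA2 far lower. The days do not overlap for any of the 17, nor for 65.0% of all tested genes. The 17 were chosen with earlier results of these data known.

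Several muscle genes had next to no reads at day 6. UNC45B, the chaperone that folds myosin heads, had 0 reads in all 3 day 6 libraries and 55.3, 37.7 and 46.4 CPM at day 9, at least 428-fold higher (a lower bound with the day 6 group set to 3 counts in all). CSRP3, a protein of the sarcomere's Z-disc, had 0 reads at day 6 and 13.3, 7.72 and 11.3 CPM at day 9, at least 98.7-fold higher. Genes with 1 to 3 reads at day 6 are given as a ratio with its 95% counting interval. It was 422 (144 to 2050) for MYBPC3, cardiac myosin-binding protein C, 465 (128 to 3840) for SMYD1, a methyltransferase needed to assemble sarcomeres, and 392 (134 to 1900) for MYH7. These bounds and intervals cover counting error only. For MYBPC3 the fitted log2 change, which for so few reads depends on the prior count, was 8.60 and without day 6 replicate 2 it was 9.27.

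Of 22 tested sarcomere genes (24 listed), 17 rose, 0 fell and the median log2 change was 3.51. ACTN2, the alpha-actinin of the Z-disc, rose from 1.75 ± 0.374 to 51.1 ± 10.8 CPM (28.7-fold). MYL4, an atrial light chain, rose from 3.06 ± 0.599 to 102 ± 21.6 CPM (33.9-fold). TNNT2, cardiac troponin T and a standard marker of cardiomyocytes, was at 2.76, 2.12 and 2.55 CPM and then at 29.8, 20 and 29.2 CPM, a 10.7-fold rise to a low level of 9.8 TPM. TTN, the giant spring protein titin, was already abundant at day 6 (288, 444 and 398 CPM) and overlapped day 9 (481, 442 and 671 CPM, edgeR adjusted p = 0.128). TNNI3, adult cardiac troponin I, was at 3.71 ± 0.305 and 3.11 ± 0.802 CPM and did not pass the test. Over the whole list the summed level went from 883 to 1060 CPM at day 6 to 5440 to 6880 CPM at day 9.

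Atrial and sinus node genes rose more often than they fell. The few tested ventricular genes were split, and the ventricular light chain MYL2 was not detected. Of 16 tested atrial and sinus node genes, 10 rose and 1 fell, NR2F2. NPPA, atrial natriuretic peptide, rose from 0.138 ± 0.0267 to 6.27 ± 2.24 CPM (41-fold), and BMP10, a growth factor of trabeculating heart muscle, from 1.59 ± 0.811 to 34 ± 6.58 CPM (22.8-fold). HCN4, the pacemaker channel, rose from 5.49 ± 0.716 to 58.9 ± 17.2 CPM (10.6-fold). MYL2 had 0 reads in all 6 libraries, which allows up to 3 counts over each group, and IRX4, TBX5 and SHOX2 had too few reads to test. The number that fell was 2 without day 9 replicate 1 or replicate 2 or with limma on TPM, and 3 with upper quartile scaling. Of 5 tested ventricular genes 3 rose and 2 fell, HEY2 and LBH. The rises were MYH7 (log2 8.50), MYL3 (2.67) and HAND1 (4.45, on 2 counts at day 6). The median log2 change was 2.67 for these 5 genes and 2.27 for the atrial and sinus node genes. The summed level of the ventricular list was 300 to 378 CPM at day 6 and 269 to 298 CPM at day 9. That of the atrial and sinus node list went from 335 to 361 CPM to 1780 to 2250 CPM.

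Calcium handling and the cardiac regulators moved less evenly. Of 13 tested excitation genes 8 rose and 3 fell. JPH2, which ties the calcium store to the cell membrane, rose from 4.83 ± 0.412 to 120 ± 18.1 CPM (25.2-fold), and PLN, the inhibitor of the calcium pump, had a ratio of 83.4 (28.2 to 408) that rested on 3 counts at day 6, with a fitted log2 change of 6.24 and, without day 6 replicate 3, of 7.25. RYR2, the calcium release channel, rose from 1.05 ± 0.817 to 9.35 ± 2.87 CPM (log2 3.23, and 3.90 without day 6 replicate 3). Of 15 tested cardiac transcription factors 11 rose and 2 fell. MYOCD, the myocardin that drives muscle genes through SRF, was at 2.87, 2.78 and 4.67 CPM and then at 177, 173 and 205 CPM (55.9-fold), and SRF itself rose from 72.2 ± 2.71 to 147 ± 15.7 CPM (2.04-fold). TBX20 rose from 0.39 ± 0.206 to 18.4 ± 6.64 CPM (50.8-fold) and HAND2 from 0.547 ± 0.334 to 7.17 ± 2.44 CPM (13.8-fold). NKX2-5 rose to 21, 8.87 and 7.66 CPM from 0.316 ± 0.203 CPM (log2 5.34, and 4.75 without day 6 replicate 2). The GATA factors split: GATA5 rose from 2.63 ± 1.04 to 21.6 ± 4.47 CPM, GATA6 did not pass the test (197 ± 20.4 and 204 ± 9.72 CPM), and GATA4 fell 3.28-fold from 204 ± 21.1 to 61.6 ± 23.9 CPM.

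All 12 tested smooth muscle genes rose, with a median log2 change of 3.98, and the 12 rises held under each setting tried. ACTA2, smooth muscle alpha-actin, was at 7.61, 5.23 and 9.19 CPM at day 6 and at 633, 589 and 839 CPM at day 9, 96.9-fold higher (edgeR adjusted p = 2.3e-14). TAGLN, the actin-binding protein transgelin, was at 123, 115 and 140 CPM and then at 2053, 2116 and 2734 CPM, 18.3-fold higher. Both groups were clear of each other in all 3 libraries. CNN1, calponin, rose 63.4-fold to 288 ± 51.8 CPM. MYH11, the smooth muscle myosin heavy chain, rose 35.3-fold. ACTG2, enteric actin, was at 24.4, 46.6 and 71.2 CPM at day 9, 22.8-fold higher. The listed genes together went from 637 to 675 CPM at day 6 to 4830 to 6290 CPM at day 9. In bulk RNA a larger share of muscle cells and more muscle RNA per cell cannot be told apart.

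The actin genes ACTC1 and ACTG2 and the light chain gene MYL7 carry a CArG box, the site bound by SRF, just before their start. Each is shown as the 250 bases upstream of the RefSeq start, read 5′ to 3′ on the gene's strand, with every CArG box in capitals: ACTC1 at chr15:34795550-34795799 (minus strand), ACTG2 at chr2:73892758-73893007 (plus strand) and MYL7 at chr7:44141333-44141582 (minus strand), build GRCh38.p14.
ACTC1: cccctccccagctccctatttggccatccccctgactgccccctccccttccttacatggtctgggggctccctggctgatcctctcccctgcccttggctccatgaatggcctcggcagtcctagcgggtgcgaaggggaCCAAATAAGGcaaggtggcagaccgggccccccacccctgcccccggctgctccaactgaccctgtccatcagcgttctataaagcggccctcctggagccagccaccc
ACTG2: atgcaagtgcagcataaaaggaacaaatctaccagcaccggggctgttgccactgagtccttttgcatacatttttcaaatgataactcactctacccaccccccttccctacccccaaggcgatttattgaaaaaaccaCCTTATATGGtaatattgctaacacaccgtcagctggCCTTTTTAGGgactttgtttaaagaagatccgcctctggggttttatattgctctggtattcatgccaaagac
MYL7: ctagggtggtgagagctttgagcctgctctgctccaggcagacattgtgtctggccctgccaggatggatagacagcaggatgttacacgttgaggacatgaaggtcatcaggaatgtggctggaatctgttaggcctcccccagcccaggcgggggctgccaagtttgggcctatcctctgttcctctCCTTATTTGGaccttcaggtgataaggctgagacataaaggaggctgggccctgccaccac
The box lies 109 to 100 bases before the ACTC1 start and 61 to 52 bases before the MYL7 start, and ACTG2 has 2 of them. ACTC1 has further RefSeq starts, and 1 of its 3 windows held a box. The motif (2 C, then 6 bases that are A or T, then 2 G, searched on both strands from 250 bases before to 50 after the start) was in 454 of 35116 RefSeq windows (1.29%). The 207 tested genes with a match included 94 that rose (45.4%, against 28.5% of all tested genes) and 48 that fell (23.2%, against 30.3%), with a median log2 change of 0.22. The sets are unlike, because only 12039 of the 15531 tested genes had a window and the others could not match. The smooth muscle genes MYLK and SMTN and the sarcomere genes LDB3 and MYOM1 were among those with a match that rose. CXCR4, ELAVL4 and TCF7 were among those with a match that fell. MYH6, ACTA2, TAGLN and CNN1, which rose strongly, were not among the genes with a match. A match of letters is a description, not a bound site.

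Extracellular matrix genes rose alongside the muscle genes. Of 24 tested matrix genes 18 rose and 2 fell, with a median log2 change of 1.26. The 2 that fell were FBN2 and FBLN1, and 1 gene fell when day 6 replicate 2 or 3 or day 9 replicate 1 or 3 was left out, with RLE scaling or with no filter on low counts. COL1A1, the main chain of fibrillar collagen I, was at 154, 217 and 257 CPM and then at 1302, 1878 and 1635 CPM, without overlap (7.67-fold, edgeR adjusted p = 6.4e-07). THBS1, thrombospondin 1, which activates latent TGF-beta, went from 37.5, 37 and 40.2 CPM to 1154, 1105 and 1080 CPM (29.2-fold). POSTN, periostin, rose 16.9-fold to 93, 170 and 52.5 CPM, and LOX, which crosslinks collagen, 10.7-fold to 32.1 ± 11.6 CPM. FN1, fibronectin, was already among the most abundant transcripts at day 6 (14902, 16001 and 15258 CPM) and rose 2.03-fold to 25882, 35838 and 31896 CPM.

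Mesenchymal genes did not rise as a group. FOXF1, the defining regulator of splanchnic mesenchyme, had 0 to 2 counts in each library. PDGFRA, a mesenchymal growth factor receptor, fell from 85.9 ± 12.4 to 20.7 ± 5.03 CPM (4.09-fold), OSR1 from 41.9 ± 7.97 to 1.75 ± 1 CPM (25.6-fold) and TWIST1 from 10.6 ± 1.51 to 3.04 ± 0.97 CPM (3.36-fold), while PDGFRB rose from 44.3 ± 10.8 to 81.7 ± 11.5 CPM. In this list of 10 tested genes 3 rose and 4 fell, and its summed level went from 184 to 201 CPM to 103 to 136 CPM. The other rises were PRRX1 (log2 3.82, on 3 counts at day 6) and FOXF2 (2.86), and the other fall was MEOX1 (-4.23). TCF21, a factor of epicardial and visceral mesenchyme, fell from 9.48, 12.2 and 6.79 CPM to 0.321, 0 and 0.111 CPM, a ratio of 82.5 (28 to 403), with a fitted log2 change of -6.18 that was -7.21 without day 9 replicate 1 and -5.53 without replicate 2. Endothelial and blood markers had 3 rises and 3 falls of 18 tested (5 falls when only the 6 libraries were fitted). FLT1, a VEGF receptor, rose 5.87-fold to 171 ± 24.1 CPM and TEK, the angiopoietin receptor, fell 4.99-fold to 5.84 ± 1.1 CPM. Neural markers had 3 rises and 3 falls of 8 tested: NES, an intermediate filament of progenitors, rose to 788 ± 142 CPM and STMN2 to 38.3 ± 17.6 CPM, while SOX3 fell 113-fold from 28.5 ± 2.7 CPM. What part other cell types had in the muscle and matrix rises was not tested.

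Target and feedback genes of BMP and TGF-beta signalling rose with them. Of 24 tested BMP pathway genes 16 rose and 5 fell, with a median log2 change of 2.22. In untreated foregut 14 of them rose and 7 fell over the same days, with a median of 0.60. ID1, ID2 and ID3, immediate targets that block bHLH factors, rose 12.4-fold, 16.2-fold and 8.64-fold and reached 352 ± 39.3, 224 ± 6.38 and 466 ± 36.3 CPM. SMAD7, an inhibitor induced by both pathways, went from 14.2, 17.1 and 19.4 CPM to 170, 169 and 167 CPM (10-fold), and the pseudoreceptor BAMBI rose 10.1-fold to 391 ± 86.7 CPM. The ligands differed: BMP4 fell 2.74-fold from 119 ± 5.14 to 43.7 ± 9.47 CPM, and BMP2 rose 2.39-fold to 294 ± 67 CPM. No BMP was named among the factors added to these cultures.

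Of 13 tested Nodal and TGF-beta genes 8 rose and 2 fell, LEFTY1 and LEFTY2. The ligand gene TGFB1 rose from 17.2 ± 3.31 to 90 ± 5.47 CPM (5.25-fold), and its matrix target TGFBI from 12.9 ± 3.06 to 198 ± 54.9 CPM (15.5-fold). INHBA, which encodes the activin A subunit, rose from 0.212 ± 0.104 to 12.1 ± 6.26 CPM (55-fold). Of 28 genes known as targets of YAP or SRF, a list drawn up after values had been seen, 26 rose and 0 fell. ANKRD1, a nuclear cardiac repeat protein on that list, was at 156, 156 and 169 CPM and then at 2075, 1994 and 2245 CPM (13.1-fold), and EDN1, the vasoconstrictor endothelin 1, rose 46.1-fold to 151 ± 20.8 CPM.

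Of 19 tested Notch genes 9 rose and 4 fell. The ligand JAG1 was at 67.8, 73.3 and 73.7 CPM and then at 385, 786 and 1014 CPM (10.2-fold), the receptor NOTCH1 rose 4.11-fold to 86.3 ± 15.6 CPM, and the target HEY1 rose 5.3-fold to 19.4 ± 2.8 CPM. Of 24 tested Wnt genes 6 rose and 11 fell. The secreted inhibitor DKK1 rose 35.8-fold from 1.03 ± 0.34 to 36 ± 10.6 CPM, and the target SP8 fell 8.08-fold from 14 ± 2.48 CPM. Of 21 tested FGF genes 6 rose and 8 fell: FGFR1 fell 3.11-fold to 161 ± 33.4 CPM and FGFR3 rose 4.91-fold to 117 ± 17.5 CPM, and the feedback inhibitor SPRY4 rose 5.54-fold to 50.5 ± 1.01 CPM.

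CYP26A1, HOXB1 and RARB, all known to be induced by RA, were high at day 6 and lower at day 9. They do not stand for every such gene: of 15 tested HOX partners and early RA genes, a list that holds CYP26A1 and RARB, 7 fell and 7 rose, with a median log2 change of 0.27. PBX3, a HOX cofactor, rose by 1.54 on the log2 scale, the nuclear receptor NR2F1 by 1.03, and the zinc finger gene TSHZ3 by 3.69 (3.07 without day 9 replicate 3, and 2.28 with limma on TPM). The level of CYP26A1, the enzyme that clears RA, was 278, 338 and 347 CPM and then at 3.37, 1.36 and 2.55 CPM, 138-fold lower (log2 -7.11 ± 0.28 SE, edgeR adjusted p = 8.1e-12). HOXB1, expressed in the early hindbrain and foregut, fell further, from 118, 125 and 178 CPM to 0.481, 0.209 and 0.222 CPM, 475-fold lower (edgeR adjusted p = 7.4e-14). RARB, the receptor gene that RA induces, was at 176, 171 and 165 CPM and then at 56.9, 42.6 and 36.5 CPM, a smaller fall of 3.81-fold. In these 3 genes the day 6 and day 9 libraries did not overlap, as in 65.0% of all tested genes.

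Next to the starts of CYP26A1 and RARB lies a DR5 element, the pair of direct repeats spaced by 5 bases to which RAR and RXR bind. Both are shown as the 250 bases before the RefSeq start (GRCh38.p14, plus strand), with the element in capitals: CYP26A1 at chr10:93073643-93073892, with the element at chr10:93073803-93073819, and RARB at chr3:25428013-25428262, with the element at chr3:25428210-25428226.
CYP26A1: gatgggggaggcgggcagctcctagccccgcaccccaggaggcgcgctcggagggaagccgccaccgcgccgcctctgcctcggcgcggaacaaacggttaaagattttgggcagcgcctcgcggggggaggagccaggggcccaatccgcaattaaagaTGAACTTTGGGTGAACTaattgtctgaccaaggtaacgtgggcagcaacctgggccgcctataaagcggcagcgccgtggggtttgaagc
RARB: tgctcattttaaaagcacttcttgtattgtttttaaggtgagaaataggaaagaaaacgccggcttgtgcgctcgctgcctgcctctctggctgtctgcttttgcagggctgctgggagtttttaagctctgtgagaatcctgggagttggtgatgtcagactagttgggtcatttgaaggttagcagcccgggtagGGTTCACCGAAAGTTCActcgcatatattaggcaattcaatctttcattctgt
The element lies 90 to 74 bases before the CYP26A1 start and 53 to 37 bases before the RARB start. Both genes have further RefSeq starts: 1 of 2 CYP26A1 windows and 1 of 4 RARB windows held the element. DR5, searched on both strands from 250 bases before to 50 after the start, was in 31 of 35116 RefSeq windows (0.0883%). Of the 11 tested genes with a match 3 fell, CYP26A1, RARB and PHF8, and 1 rose, CYB5R2. The median log2 change of the 11 was 0.05.

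HOX genes fell to different depths. HOXB2 fell 3.43-fold from 55.8 ± 2.14 CPM to 25.8, 11.1 and 13.4 CPM, and HOXB3 3.26-fold from 16.6 ± 2.7 to 5.2 ± 2.02 CPM. HOXA2 was low throughout and fell 2.84-fold from 1.85 ± 0.307 to 0.733 ± 0.618 CPM. HOXA3 (2.86 ± 1.07 and 2.31 ± 0.379 CPM), HOXB-AS1 (3.77 ± 0.614 and 2.99 ± 0.575 CPM) and HOXC4 (1.37 ± 0.36 and 1.95 ± 0.423 CPM) did not pass the test. HOXC13 had 0 counts at day 6 and 20 in all at day 9, at least 7.62-fold higher, most of them in replicate 1. HOXB4 had 8, 17 and 10 counts at day 6 and 3, 6 and 6 at day 9 and was not tested. In the HOXB list 3 of 4 tested genes fell and 0 rose.

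**Figure D2:**
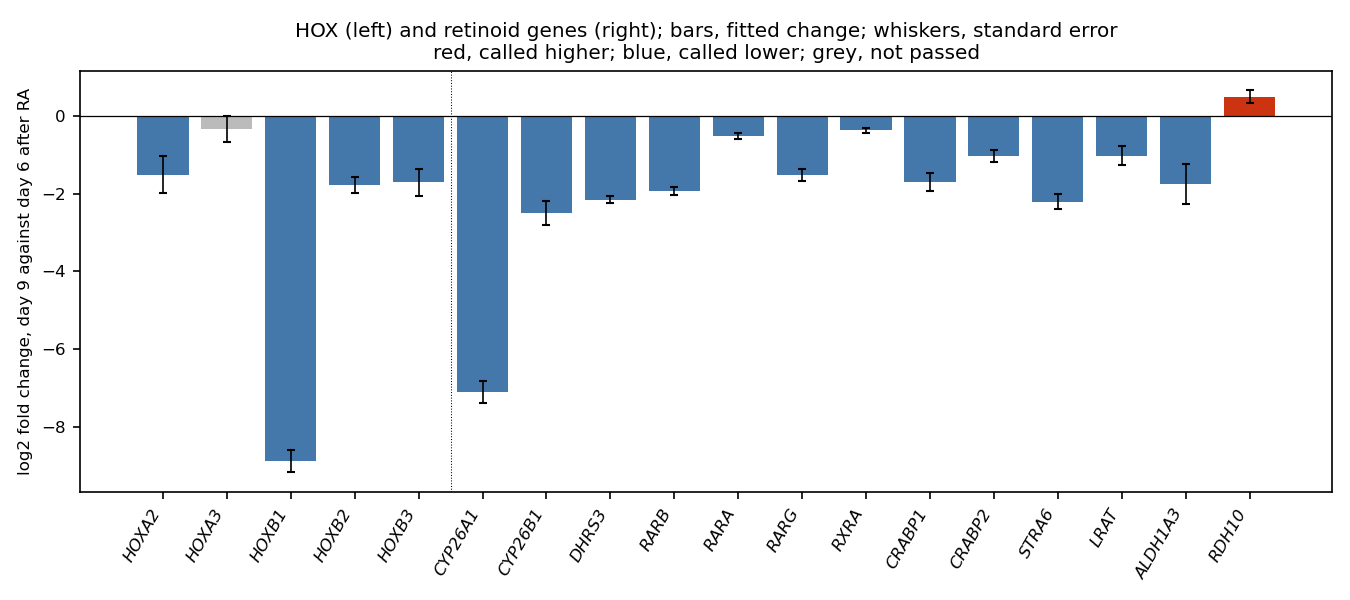
Fitted log2 change from day 6 to day 9 after RA (bars, with standard errors as whiskers) for HOX genes on the left and genes of retinoid turnover, binding and reception on the right. HOXB1 and CYP26A1 lie far below 0, and HOXA3, in grey, did not pass the test. The genes shown are a selection: ALDH1A1, ADH1B, RXRG and HOXC13, which rose, are among those left out.

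Of 19 tested genes of retinoid turnover 10 fell and 5 rose, with a median log2 change of -0.75 (3 rose without day 9 replicate 2). CYP26B1, a second degrading enzyme, fell 5.69-fold from 12.4 ± 2.75 to 2.1 ± 0.635 CPM, whereas CYP26C1 did not pass the test (0.508 ± 0.087 and 1.67 ± 1.09 CPM). DHRS3, which turns retinal back into retinol, fell 4.46-fold from 209, 203 and 203 CPM to 47.1, 42.1 and 49 CPM. STRA6, the retinol uptake receptor, fell 4.6-fold to 4.14 ± 1.89 CPM. The binding proteins CRABP1 and CRABP2 ended at 2.73 ± 0.925 and 120 ± 12.1 CPM after falls of 3.27-fold and 2.04-fold, and the carrier RBP4 fell 5.33-fold to 0.199 ± 0.119 CPM. LRAT, which stores retinol as esters, fell 2.03-fold to 3.6 ± 1.07 CPM. RDH5 (1.68-fold) and ALDH1A3 (3.37-fold) fell as well, both to levels under 2 CPM.

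The enzymes on the synthesis side that rose were low or changed little. ALDH1A1, which oxidises retinal to RA, had 2 counts at day 6 and 6.73, 7.72 and 11.4 CPM at day 9, a ratio of 125 (34.2 to 1040). Its fitted log2 change of 6.73 was 9.56 without day 6 replicate 1 and 6.01 without replicate 2. ADH1B, an alcohol dehydrogenase, had 0 counts at day 6 and 2.08, 3.86 and 5.44 CPM at day 9, at least 37.7-fold higher. RDH10, the main retinol dehydrogenase of the embryo, rose 1.42-fold, RETSAT 1.5-fold and RDH11 1.18-fold, and they stood at 13.9 ± 2.07, 25.2 ± 1.11 and 89.1 ± 3.87 CPM at day 9. ALDH1A2, the chief RA-making enzyme of the embryo, was at 0.974 ± 0.355 and 1.33 ± 0.314 CPM and did not pass the test, nor did TTR, which carries retinol-binding protein in blood (145 ± 23.2 and 146 ± 39 CPM). Among receptors, RARA, RARG and RXRA fell 1.43-fold, 2.88-fold and 1.29-fold, to 65.4 ± 3.36, 7.96 ± 0.774 and 111 ± 2.32 CPM, and RXRB did not pass (40.7 ± 3.37 and 43.1 ± 2.06 CPM). RXRG, which is expressed in muscle, had 0 reads at day 6 and 13.8, 6.89 and 5.22 CPM at day 9, at least 75.8-fold higher. Of the 12 receptor and cofactor genes 4 rose and 6 fell.

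Markers common to endoderm stayed abundant. Of 16 tested pan-endoderm genes 1 rose, CDH1, and 9 fell (2 rose without day 9 replicate 3), and their summed level was 10400 to 11900 CPM at day 6 and 10200 to 10600 CPM at day 9. EPCAM, an epithelial adhesion protein, was at 427, 436 and 405 CPM and at 425, 420 and 392 CPM, and did not pass the test. CDH1, E-cadherin, rose 2.03-fold from 297 ± 23.7 to 602 ± 77 CPM. The forkhead factor FOXA2 fell 2.26-fold from 234 ± 7.75 to 104 ± 12.8 CPM, and SOX17, a factor of early endoderm, fell 8.62-fold from 21.5 ± 0.959 to 2.61 ± 1.08 CPM. The epithelial keratin KRT8 was at 5318 ± 440 and 4942 ± 162 CPM and did not pass. Set against their label, the day 9 libraries held endoderm markers at a summed level close to that of day 6 together with abundant muscle transcripts.

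Genes of liver secretion and the factors that direct liver and pancreas moved in opposite directions. APOA2, an apolipoprotein of high-density lipoprotein, was at 188, 231 and 206 CPM and then at 6.41, 6.78 and 5.33 CPM, 33.8-fold lower (edgeR adjusted p = 6.6e-18). Of 23 tested secreted hepatic proteins 11 fell and 5 rose, with a median log2 change of -0.63. APOA1, the main protein of high-density lipoprotein, fell 4-fold to 36.7 ± 6.06 CPM. SERPINF1, an inhibitor of blood vessel growth, went 11.1-fold down to 46 ± 4.58 CPM and prothrombin, F2, 10.8-fold down to 2.78 ± 1.18 CPM. SERPINA1, alpha-1 antitrypsin, rose instead from 1.28 ± 0.113 CPM to 12.7, 38.5 and 32.4 CPM (22-fold). AFP, the fetal albumin homologue, did not pass the test (7.05 ± 3.52 and 12.2 ± 3.02 CPM), and ALB had 6 to 11 counts in each day 6 library and 1 to 6 in each day 9 library and was not tested.

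Of 17 tested liver and pancreas factors 13 rose and 3 fell, with a median log2 change of 1.72. HNF4A, a nuclear receptor of hepatocytes and gut, was at 27.6, 29.1 and 17.3 CPM and then at 61.5, 80.5 and 103 CPM (3.29-fold, edgeR adjusted p = 2.1e-06). HHEX, needed for the liver bud, rose from 29.9, 34.2 and 32.8 CPM to 196, 277 and 260 CPM (7.57-fold). PROX1, which lets hepatoblasts leave the bud, rose 51.2-fold to 61.2 ± 27.2 CPM. The cut homeobox factor ONECUT1 rose 18.6-fold and the T-box factor TBX3 16.1-fold, to 94.4 ± 37.1 and 244 ± 46 CPM. Among those that fell were the lipid-sensing receptors PPARA and PPARG.

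PDX1, the factor of pancreas and duodenum, was at 0.331, 0.408 and 0 CPM at day 6 and at 20.8, 29 and 58.7 CPM at day 9 (125-fold), and CDX2, the intestinal factor, went from 0.601 ± 0.141 CPM to 19.9, 30.3 and 59.3 CPM (60.3-fold). Both were highest in day 9 replicate 3, and neither gene's day 9 libraries came near those of day 6. SPINK1, a trypsin inhibitor of the pancreas, rose 65.3-fold to 87.6 ± 24.7 CPM, and VIL1, the brush border protein villin, 4.9-fold to 121 ± 39.8 CPM. MNX1, a factor of the early pancreatic bud, ran the other way, from 46.9, 41.9 and 29.3 CPM to 0, 0.209 and 0.666 CPM (119-fold lower, log2 -6.89, and -8.17 without day 9 replicate 3). MTTP, which loads lipid onto apolipoprotein B, fell 18.5-fold to 8 ± 2 CPM, and the trypsinogen gene PRSS1 8.78-fold to 12.8 ± 1.08 CPM. Of 8 tested intestinal genes 3 rose and 4 fell, and of 13 tested pancreatic genes 6 rose and 4 fell.

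Genes of the anterior and respiratory foregut were mixed. NKX2-1, the first marker of lung and thyroid, was at 0.111 ± 0.0299 and 0.176 ± 0.163 CPM and did not pass the test. Of 25 tested anterior and pharyngeal genes 10 rose and 6 fell. FOXE1, a thyroid factor, rose from 0.528 ± 0.191 CPM to 40.7, 12.5 and 3.66 CPM (log2 5.11, and 4.02 without day 9 replicate 1). NKX2-6 rose from 0.854 ± 0.433 CPM to 22.9, 6.68 and 4.55 CPM (log2 3.75, and 2.83 without that replicate). ISL1 rose from 14.3 ± 2.16 CPM to 112, 55.9 and 23.1 CPM (log2 2.13, and 1.48 without it), a call that was lost when only the 6 libraries were fitted. In these 3 genes day 9 replicate 1 was the highest and replicate 3 the lowest. SOX2, a factor of dorsal foregut, went from 41.3, 31.9 and 28 CPM to 26.6, 13.5 and 4.55 CPM (log2 -1.27, edgeR adjusted p = 0.0184), and its call was lost without day 6 replicate 1 (-1.10), day 9 replicate 2 (-1.24) or day 9 replicate 3 (-0.81), and when only the 6 libraries were fitted. Without day 9 replicate 1 it was -1.90.

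Of 15 tested Hedgehog genes 3 rose and 7 fell. The ligand IHH fell 14.8-fold from 241 ± 17.8 CPM to 24.4, 17.6 and 8.44 CPM, and the transcription factor GLI3 4.74-fold from 113 ± 2.08 to 24 ± 1.98 CPM. The ligand SHH (19.7 ± 1.16 and 33.8 ± 14.5 CPM) and the target GLI1 (6.96 ± 1.09 and 5.01 ± 1.94 CPM) did not pass the test.

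Genes of DNA replication fell together. Of 26 tested replication genes 25 fell and 0 rose, with a median log2 change of -0.84. The helicase subunits MCM2, MCM5 and MCM6 fell 2.28-fold, 2.58-fold and 2.62-fold, the origin protein ORC1 2.92-fold and cyclin E1, CCNE1, 2.57-fold. MKI67, the proliferation antigen, was at 424, 413 and 456 CPM and then at 287, 251 and 278 CPM, 1.59-fold lower without overlap. Mitotic genes changed less: of 20 tested 9 fell and 1 rose, KIF11, with a median of -0.22, and the rises numbered 0 to 4 when single libraries were left out. Among 14 cell cycle brakes 10 rose and 2 fell (1 fell without day 6 replicate 1 or 2 or day 9 replicate 3). CDKN1A, p21, rose 5.49-fold to 105 ± 15.5 CPM, and GADD45B, a stress-induced gene, 22.7-fold to 115 ± 5.63 CPM. CDKN2B, p15, rose 10-fold from 17.5 ± 2.18 CPM to 258, 181 and 85.6 CPM. All 8 tested pluripotency genes fell, among them DPPA4 (7.11-fold to 6.6 ± 1.16 CPM) and TERT (10.6-fold to 1.03 ± 0.53 CPM), with the limits given above for SOX2.

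Stress genes rose, and metabolic lists went different ways. Of 19 tested stress response genes 15 rose and 0 fell, led by ATF3, which rose 6.89-fold from 19 ± 2.74 to 132 ± 13.1 CPM. Of 22 tested glycolysis and hypoxia genes 14 rose and 3 fell, the same numbers as in untreated foregut. The glucose transporter SLC2A3 was at 740, 641 and 741 CPM and then at 5513, 6834 and 5665 CPM (8.49-fold), whereas VEGFA, the vascular growth factor, fell 10.4-fold from 1983, 1813 and 1671 CPM to 162, 171 and 193 CPM. Of 24 tested cholesterol genes 13 rose and 3 fell: the enzyme SC5D rose 4.62-fold to 416 ± 65.9 CPM. Of 13 tested lipid and bile genes 4 rose and 7 fell, with a median log2 change of -0.42. Of 13 tested genes of the mitochondrial genome 0 rose and 3 fell, ND1, ND2 and ND6, and the number that fell was 5 with upper quartile scaling, 0 without day 6 replicate 1 and 1 without day 9 replicate 2 or 3. Of 20 tested imprinted and insulin-like growth factor genes 10 rose and 6 fell. IGF2, a growth factor, fell 2.56-fold from 3116 ± 363 to 1215 ± 99 CPM. The binding proteins IGFBP7 and IGFBP6 went opposite ways, the first 171-fold up from 1.53 ± 0.96 to 260 ± 79.2 CPM and the second 54.6-fold down from 275 ± 26 to 5.18 ± 1.38 CPM. Junction genes had 16 rises and 5 falls of 24 tested, with the cadherin CDH11 19-fold higher at 1035 ± 112 CPM and CLDN1, a tight junction claudin, 50.6-fold higher at 72.4 ± 29.4 CPM.

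**Figure D3:**
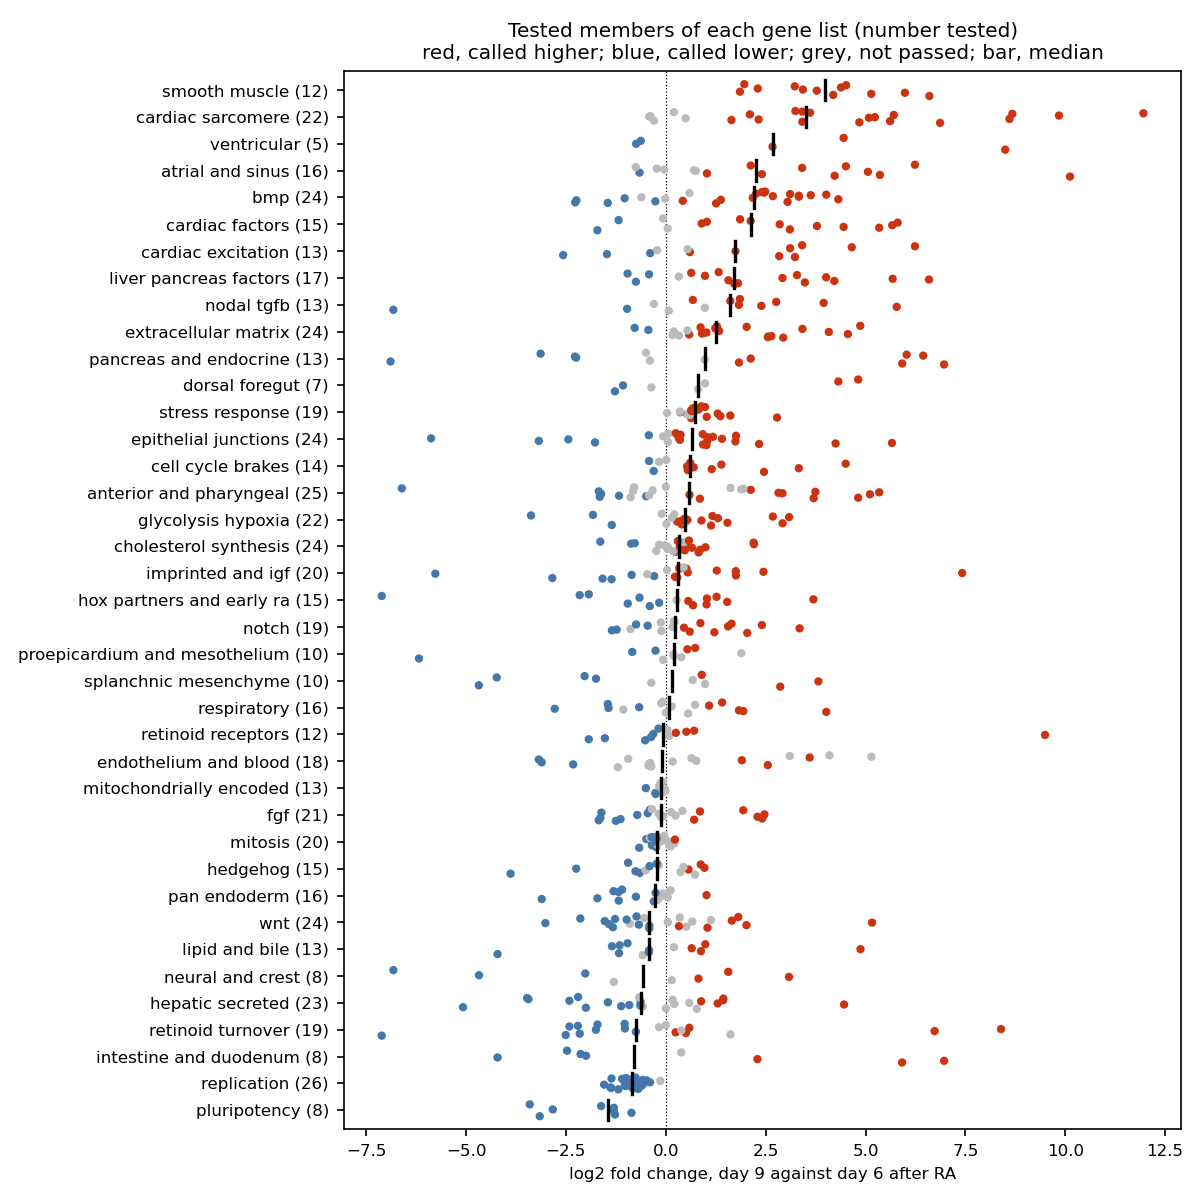
Fitted log2 change from day 6 to day 9 after RA of each tested gene (points) in gene lists with at least 5 tested genes, ordered by median (bars), with genes that rose in red, that fell in blue and others in grey. All 12 smooth muscle genes are red, and 25 of 26 replication genes are blue.

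The largest rises and falls took in genes of other kinds as well. GPR183, a receptor for oxysterols, had 0 reads at day 6 and 4.49, 7.41 and 6.99 CPM at day 9 (at least 61.7-fold higher). UCN3, the peptide urocortin 3, had 0 reads and then 3.37, 4.07 and 8.21 CPM (at least 51.1-fold). Among the falls, PRLHR, a neuropeptide receptor, went from 13.6, 12 and 11.2 CPM to 0 reads (at least 102-fold lower), a call that DESeq2 did not make. MSR1, a scavenger receptor of macrophages, and CALCA, which encodes calcitonin, went from 5.54 ± 0.68 and 5.02 ± 0.45 CPM to 0 reads (at least 46.1-fold and at least 42-fold lower). TRPM2, a cation channel, fell 179-fold from 46.7, 60.4 and 49.6 CPM to 0, 0.313 and 0.444 CPM, and MOBP, a myelin protein, 123-fold from 30.9 ± 3.92 CPM. For GPR37L1 and VWA5B1, with 2 counts each at day 9, the ratios were 239 (65.8 to 1980) and 177 (48.6 to 1460). Leaving out the GPR37L1 library that held both of its counts, day 9 replicate 3, moved its fitted log2 change from -7.66 to -10.65, and without replicate 2 it was -7.03.

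The change after RA was set against the change that untreated foregut made over the same days. That comparison used no library in common with it, but it crosses the pseudogene divide described above. Of 15531 genes 7287 (46.9%) differed between untreated day 6 and day 9: 3735 were higher (24.0%) and 3552 lower (22.9%), and at 2-fold or more 1002 (6.45%) and 1116 (7.19%). Of the 4423 genes that rose after RA, 1451 (32.8%) also rose untreated and 903 (20.4%) fell, and of the 4704 that fell, 1425 (30.3%) also fell and 877 (18.6%) rose. Across all tested genes the log2 changes correlated weakly (Pearson r = 0.25, Spearman rho = 0.16, n = 15531 genes, which are not independent replicates). The interaction, which tests the difference of the 2 changes, passed for 7905 genes (50.9%): 3862 had a more positive change after RA (24.9%) and 4043 a more negative one (26.0%). At 2-fold or more the numbers were 1731 and 1718 (11.1% each).

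Without RA, 3 smooth muscle genes rose and 4 fell, and 2 sarcomere genes rose and 4 fell. All 12 smooth muscle genes and 17 of 22 sarcomere genes had a more positive change after RA by the interaction test, with 0 more negative in both lists. ACTC1 was at 79.9 CPM untreated at day 6 and 83 CPM at day 9 (means), a difference of 6.79 on the log2 scale between the changes (edgeR adjusted p = 1.1e-07). MYH6 was at 1.52 and 0.197 CPM untreated, and COL1A1 at 257 and 196 CPM (difference 3.35). TTN, which did not pass after RA, fell without it from 279 to 14.8 CPM, and the interaction was 4.69 (edgeR adjusted p = 1.1e-06). HNF4A was at 2.61 and 1.03 CPM untreated, and the difference was 3.01 (edgeR adjusted p = 3.1e-04).

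CYP26A1 rose without RA, from 68.1 to 125 CPM (means), while it fell after RA, and the difference was -7.99 (edgeR adjusted p = 6.9e-11). APOA2 fell in both, from 3.82 to 0.468 CPM untreated, and the difference of -1.60 was lost without untreated day 6 replicates 1 and 3 together (-1.58) and without untreated day 9 replicate 3 (-1.08). MKI67 rose without RA from 500 to 573 CPM (difference -0.86). HOXB1, PDX1, CDX2 and SPINK1 had 0 reads in all 6 untreated libraries, so edgeR's interaction gave no call for them (adjusted p = 1). DESeq2 and limma on TPM did call it for HOXB1 (-8.60 and -7.33), PDX1 (7.45 and 5.63) and CDX2 (6.28 and 4.68). TBX3, EDN1 and VEGFA moved the same way in both: TBX3 from 25.2 to 206 CPM, EDN1 from 8.74 to 191 CPM and VEGFA from 978 to 186 CPM untreated.

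**Figure D4:**
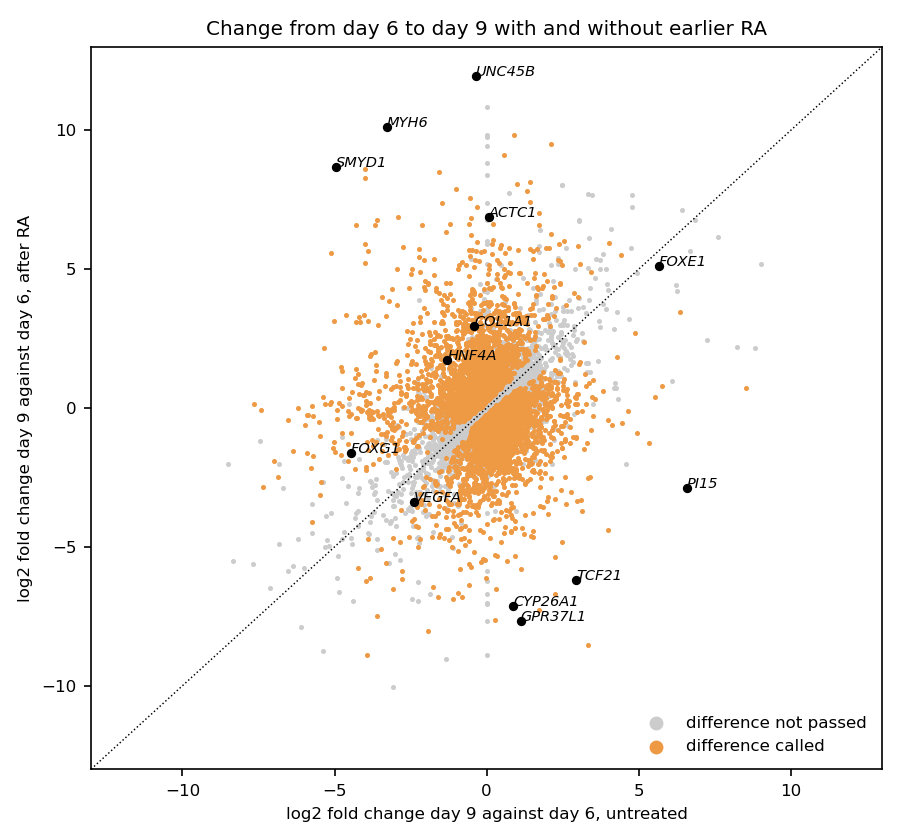
Log2 change from day 6 to day 9 without RA (horizontal axis) against that after RA (vertical axis), 1 point per tested gene, orange where the interaction passed the test, with the diagonal of equal changes. MYH6 and ACTC1 lie high above the diagonal and CYP26A1 far below it, while FOXE1 lies near it.

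The day 9 libraries after RA alone were also set against the day 9 libraries that received CHIR99021 and BMP4 after RA. This test and the change from day 6 use the same 3 libraries of day 9 after RA alone, so no overlap between them is given. Of 15531 genes 10004 (64.4%) differed, 5017 higher (32.3%) and 4987 lower (32.1%) after RA alone, and at 2-fold or more 2100 (13.5%) and 1589 (10.2%). The heart muscle genes were near 0 with the added factors: MYH6 at 0.546 ± 0.702 CPM against 722 ± 171 CPM (892-fold, log2 9.80, and 11.92 without replicate 1 of the group with added factors), and MYBPC3 and CSRP3 with 0 reads (at least 567-fold and at least 133-fold lower). With few reads there, SMYD1 and UNC45B had ratios of 625 (172 to 5170) and 576 (196 to 2800), higher after RA alone. All of those reads were in the same replicate 1, and without it the fitted log2 differences went from 9.04 to 11.41 and from 9.01 to 11.87. ACTC1 was at 15.7 ± 3.38 CPM, MYL7 at 3.43 ± 1.09 CPM and ACTA2 at 16.7 ± 3.4 CPM with them. All 12 smooth muscle genes and 18 of 22 sarcomere genes were higher after RA alone, and 2 sarcomere genes were lower. FN1 was 8.53-fold and COL1A1 16.1-fold higher after RA alone. DGKI, a diacylglycerol kinase, stood at 97.6 ± 10.5 CPM against 0.314 ± 0.205 CPM (354-fold).

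The respiratory marker NKX2-1 was at 0.176 ± 0.163 CPM after RA alone and at 79.2 ± 8.65 CPM with CHIR99021 and BMP4, 459-fold lower without them. SHH was at 33.8 ± 14.5 CPM against 515 ± 36.9 CPM (15.7-fold lower). The Wnt target SP5 was 52.1-fold, the guidance cue NTN1 49.7-fold and the glutamate transporter SLC1A2 47.9-fold lower after RA alone, and EFCC1 and KCNC1 27.6-fold and 27.1-fold lower. Single libraries moved some of these log2 differences: without replicate 2 of RA alone SP5 went from -5.70 to -6.53 and KCNC1 from -4.76 to -5.79, and without replicate 3 SLC1A2 went from -5.58 to -4.95 and NKX2-1 from -8.84 to -8.23. IGF2 was 33.2-fold higher after RA alone (1215 ± 99 against 36.9 ± 6.74 CPM). HOXB1 (0.304 ± 0.153 against 0.257 ± 0.154 CPM) and RARB (45.3 ± 10.5 against 42.7 ± 1.7 CPM) did not pass the test, and HOXB2 was 2.66-fold higher after RA alone.

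**Figure D5:**
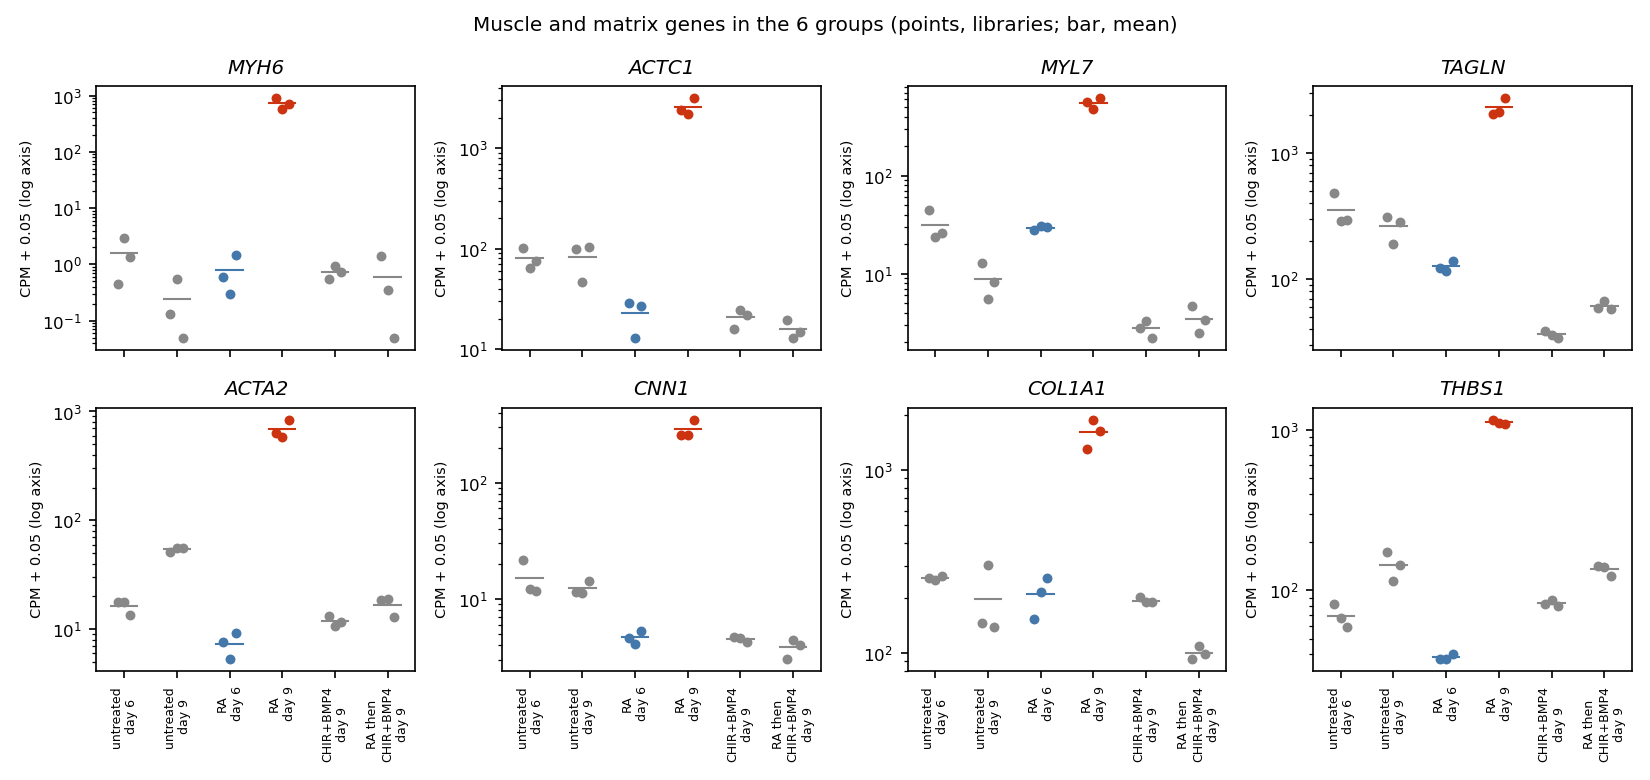
Levels of 8 muscle and matrix genes in all 6 groups (CPM with 0.05 added, log axes, 1 point per library, bars at the group means). In each panel the 3 libraries of day 9 after RA alone, in red, lie above every other library.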

How the data were processed

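Bulk RNA-seq was read from the authors' deposited table of gene counts and their deposited TPM values, for 18 libraries in 6 groups of 3. Libraries came from a TruSeq stranded mRNA kit, per the labels, and the submitters' processing notes name STAR 2.7.9 and the GRCh38 build. Not given in the sources used here: the annotation, the counting tool, its strand setting and how it treated reads shared by several genes.

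From the counts, edgeR 4.0.16 (R 4.3.3) fitted a quasi-likelihood model to all 18 libraries, with TMM scaling and filterByExpr (minimum count 10), and p-values were adjusted over 15531 genes. The 36 table entries without a symbol (0.00102% of counts) were left out. A fold change is the fitted one. A gene with 0 counts in a group is given against a floor of 3 counts over that group, and one with 1 to 3 counts as a ratio with an exact 95% interval. Library totals set the precision of low values. TPM values entered limma 3.58.1 as log2(TPM + 1), and DESeq2 1.42.0 was a further alternative. The other alternatives were RLE and upper quartile scaling, no low-count filter, a replicate block, only the libraries compared, and leaving out libraries. The procedure was tested on simulated data.

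Named genes were a fixed set, HOX and retinoid turnover genes, the 12 largest rises and falls after RA (6 each for the other comparisons) among genes that reached 5 CPM in a group and whose libraries were separate, and up to 5 genes that passed the test per list. Pseudogenes and clone or antisense names were skipped, and a few genes within the rule are not reported here. The libraries, genes and lists were chosen with earlier results of these data known, so their counts are descriptions. The lists of YAP and SRF targets, motile cilia, chemokines and vitamin B12 binding, and some genes such as TAGLN and TNNT2, were added after values had been seen. Same-numbered libraries of day 6 and day 9 after RA did not deviate together, so replicate numbers were not used as pairs. RefSeq windows around the start site were found for 12039 of the tested genes, and motif counts joined windows to genes by gene identifier.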

Additional observations from a re-analysis of the deposited data

Results flagged for a closer look

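For the following genes the change from day 6 to day 9 differed between RA-treated and untreated foregut by edgeR's interaction test. Each value is the log2 change after RA minus the log2 change without it. Muscle and matrix genes had more positive changes after RA: SMYD1 13.63, MYH6 13.4, MYBPC3 12.6, UNC45B 12.32, ACTC1 6.79 and COL1A1 3.35. NYAP2, a neuronal adaptor, had 10.37. HNF4A had 3.01 and GATA6 1.15.

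More negative changes after RA were seen for PI15 (-9.45), TCF21 (-9.13), VWA5B1 (-8.99), CDH26 (-8.93) and GPR37L1 (-8.78). PI15 itself went only from 27 counts at day 6 to 3 at day 9 after RA, a ratio of 7.87 (2.42 to 40.6). Most of its difference therefore lies in the change without RA. Among RA-responsive genes the difference was -7.99 for CYP26A1, -2.68 for DHRS3 and -0.77 for RARB. GLI1 had -2.07, APOA2 -1.6 and MKI67 -0.86. Fitted differences of genes with few or no counts in a group, such as SMYD1, UNC45B and MYBPC3, depend on the prior count. Leaving out single libraries, or untreated day 6 replicates 1 and 3 together, moved several by more than 1.5-fold: SMYD1 to between 11.32 and 15.33, MYBPC3 11.25 and 14.06, MYH6 12.54 and 14.41, and UNC45B 11.6 and 13.14. TCF21 lay between -10.21 and -8.47 and CDH26 between -9.71 and -8.25. GPR37L1 was -11.78 without day 9 replicate 3 after RA, -8.15 without replicate 2, and -10.15 without the 2 untreated libraries. NYAP2 was 9.66 without untreated day 6 replicate 3. The calls for APOA2 (-1.58) and NYAP2 (6.79) were lost without untreated day 6 replicates 1 and 3, and that for APOA2 without untreated day 9 replicate 3 (-1.08). All of these differences set libraries against untreated ones across the pseudogene divide, whose part in them was not tested.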

How the results depend on the processing

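No result that passed its test changed direction under the settings tried. Signs changed for 7 results that did not pass, in 26 pairs of result and setting. They included the interaction of AFP (0.02, down to -1.41), TTR (0.28, down to -0.44), IGF2 (-0.02, up to 0.56) and NKX2-1 (-0.39, up to 0.22), HOXB1 (0.40, down to -0.29) and RARB (0.07, down to -0.11) against CHIR99021 and BMP4 after RA, and GATA6 after RA (0.05, down to -0.03). After RA, leaving out 1 library gave 4111 to 4323 genes higher and 4238 to 4543 lower (1591 to 1671 and 1587 to 1684 at 2-fold or more), and of 217 named genes, 212 of which passed, at most 7 lost their call in any setting. Upper quartile scaling moved the median log2 change of all genes to -0.11 and gave 3905 higher and 5470 lower, 41.7% higher against 48.5%. With limma on TPM, untreated foregut had 2208 genes higher, 5617 lower and 409 higher at 2-fold or more (28.2% higher against 51.3%), the interaction had 1138 lower at 2-fold or more (58.8% of calls positive against 48.9%), and 1018 genes were lower at 2-fold or more against CHIR99021 and BMP4 after RA. Without untreated day 6 replicates 1 and 3, untreated foregut had 2205 genes higher and 2290 lower. The cause of these moves was not tested. With a replicate block 4461 genes rose and 4741 fell, and of the named calls that of HHIP was lost. Same-numbered libraries correlated at -0.0369, 0.0724 and -0.0024, so the numbers do not show a pairing. Changes of genes under a few counts were not detectable at this depth, and the 3 libraries a group limit every error.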

Other observations

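Genes of motile cilia were low at day 9. In a list drawn up after values had been seen, 20 of 23 tested genes fell and 1 rose after RA, with a median log2 change of -2.77. FOXJ1, the master regulator of motile cilia, was at 301, 295 and 239 CPM and then at 13, 10.1 and 11.1 CPM (24.7-fold lower, edgeR adjusted p = 2.1e-13). The 2 groups did not overlap. DRC1, part of the dynein regulatory complex, fell 44-fold from 20 ± 4.58 to 0.485 ± 0.298 CPM, and TEKT1, a tektin of the axoneme, from 7.5, 6.78 and 3.68 CPM to 0 reads (at least 51.6-fold lower). CFAP100 had 1 count at day 9 and a ratio of 343 (61.2 to 13600), and its fitted log2 change of -8.05 was -10.21 without day 9 replicate 2. The dynein gene DNAH11 rose 2.43-fold from 4.83 ± 0.597 to 11.5 ± 1.76 CPM. Without RA, FOXJ1 went from 31.8 to 8.77 CPM (means).

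Chemokine genes and NF-kB targets rose, in a list also drawn up after values had been seen: 14 of 17 tested rose and 2 fell, ICAM1 and PLAUR, with a median log2 change of 1.12. CXCL1, a neutrophil attractant, was at 0.221, 0.163 and 0 CPM and then at 17, 29.4 and 39 CPM (189-fold), and CXCL6 rose 37.1-fold to 19.8 ± 8.06 CPM. CXCL8, interleukin 8, had 3 counts at day 6 and a ratio of 125 (42.5 to 611). The cytokine IL11 rose 8.04-fold to 17.7 ± 0.504 CPM. SERPINB2, an inhibitor of plasminogen activators, had 0 reads and then 5.93, 10.4 and 13.7 CPM (at least 99.1-fold higher). Of 8 tested genes of vitamin B12 binding and the stomach 2 rose and 5 fell. TCN1, a B12-binding protein, had 0 reads and then 13.1, 21.6 and 28.1 CPM (at least 207-fold higher), and CBLIF, the intrinsic factor, 0 reads and then 4.97, 7.09 and 11.9 CPM (at least 78.5-fold, a call DESeq2 did not make). TCN2, which carries B12 in blood, fell 2.53-fold from 33.2 ± 2 CPM, and CLDN18, a claudin of stomach and lung, had 1 count at day 9, a ratio of 76.1 (13.3 to 3040).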
